A study of Rattus norvegicus with 10 samples.

Results

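The 10 genes described here are classical markers of altered foci and liver tumours in the rat, measured in liver RNA of female rats. They are Gstp1, Akr1b8, Aldh3a1, Akr7a3, Ggt1, Afp, Gpc3, Cd44, Anxa2 and Krt19. Every probe set annotated to one of them was taken, which gave 13 of the 31042 probe sets on the array and 10 of the 14217 genes with a probe set of their own. Gpc3, Cd44 and Anxa2 have 2 probe sets each, the other 7 genes 1, and each gene was followed through its brightest probe set. The dosed group held 5 samples from female Harlan Sprague-Dawley rats that received indole-3-carbinol, a breakdown product of glucosinolates in cabbage and broccoli. The dose was 300 mg per kg, gavaged in corn oil on 5 days per week, and the vehicle group held 5 samples from rats gavaged with corn oil alone (0 mg per kg). Treatment lasted 13 weeks in both groups by the labels, while the design text of the series describes a longer toxicology study, and the labels' time is used here. The labelled tissue is liver, and neither the ages of the rats nor any microscopy is given in the sources used here. In bulk tissue, fewer cells of a type and less RNA per cell cannot be told apart.

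Altered foci are clusters of hepatocytes with a changed set of enzymes that appear in rat liver after carcinogen exposure and can precede tumours. They are recognised by what the changed cells make. The placental form of glutathione S-transferase, encoded by Gstp1, and gamma-glutamyltransferase, encoded by Ggt1, are scarce in normal adult hepatocytes and abundant in many foci, and a group of carbonyl-reducing and aldehyde-oxidising enzymes is raised with them. Several of these enzyme genes also respond directly to the aryl hydrocarbon receptor or to the stress-responsive regulator NRF2, and a chemical can induce them in hepatocytes outside foci. The remaining markers belong to fetal hepatocytes, bile duct and progenitor cells, or migrating tumour cells.

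The level of 4 enzyme genes was higher in every dosed array than in every vehicle array, as in 4.61% of all genes. Of these 4, 3 passed the test, Akr1b8, Aldh3a1 and Akr7a3, where 3.32% of all genes rose. For 3 of the 4 genes RefSeq gives a start site in the promoter table of assembly GRCr8. The 250 bases before that start are shown because the genes were high in the same arrays. Capitals mark the core of the xenobiotic response element bound by the aryl hydrocarbon receptor (GCGTG) and the core of the antioxidant response element (TGANNNNGC), read on both strands.
Gstp1, GRCr8 chr1:210769706-210769955, minus strand: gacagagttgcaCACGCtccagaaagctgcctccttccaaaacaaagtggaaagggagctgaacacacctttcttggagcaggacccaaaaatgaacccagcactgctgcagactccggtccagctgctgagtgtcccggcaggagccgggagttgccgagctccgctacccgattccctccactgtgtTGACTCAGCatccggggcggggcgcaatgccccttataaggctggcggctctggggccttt
Akr1b8, GRCr8 chr4:63964171-63964420, plus strand: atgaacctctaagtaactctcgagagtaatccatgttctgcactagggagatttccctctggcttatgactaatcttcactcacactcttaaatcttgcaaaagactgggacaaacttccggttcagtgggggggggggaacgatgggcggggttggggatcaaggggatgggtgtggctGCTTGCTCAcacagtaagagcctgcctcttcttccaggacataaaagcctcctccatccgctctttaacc
Akr7a3, GRCr8 chr5:156876471-156876720, plus strand: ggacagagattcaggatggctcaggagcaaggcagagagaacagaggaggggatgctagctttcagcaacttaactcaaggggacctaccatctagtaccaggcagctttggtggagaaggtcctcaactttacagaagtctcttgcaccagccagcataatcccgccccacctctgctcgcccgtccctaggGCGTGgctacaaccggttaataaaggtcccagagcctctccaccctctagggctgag

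Positions of the motifs count back from the start site. In the Gstp1 window TGACTCAGC begins at -61, where it also holds the AP-1 motif (TGANTCA) as its first part, and the xenobiotic core lies on the opposite strand at -238. The Akr1b8 window holds 1 antioxidant core, on the opposite strand at -70, and no xenobiotic core. The Akr7a3 window holds 1 xenobiotic core at -57 and no antioxidant core. Of all 33469 promoters in the table, 25.9% hold the xenobiotic core in this window, 34.7% the antioxidant core and 6.34% the AP-1 motif. Among the other markers that did not pass the test, Gpc3 has 3 xenobiotic cores and no antioxidant core, and Cd44 has 1 of each core. Ggt1, Afp and Anxa2 hold neither core, and Anxa2 has 1 AP-1 motif, at -123. The windows were found for 8 of the 10 genes, all but Aldh3a1 and Krt19.

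Aldh3a1, the dioxin-inducible cytosolic aldehyde dehydrogenase also known as the tumour-associated form in rat liver, showed the largest difference of the 10 genes. On the log2 scale of the arrays it read 8.03, 7.85, 7.14, 6.85 and 8.34 in dosed livers 1 to 5, against 5.38, 5.46, 4.68, 5.43 and 5.42 in vehicle livers 1 to 5. The lowest dosed liver, dosed 4, lay well above the highest vehicle liver, and dosed 5, 1 and 2 stood above dosed 3 and 4. Aldh3a1 rose by 2.37 ± 0.26 (SE, n = 5 per group, limma adjusted p = 0.000214), a 5.15-fold difference. Its vehicle level was dim, 32.9% of the way up the array's ranking of probe sets.

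Akr1b8, an aldo-keto reductase of the 1B family that reduces lipid-derived aldehydes, read 7.85, 7.69, 7.82, 7.72 and 8.92 in dosed livers 1 to 5, against 6.78, 6.30, 5.30, 5.84 and 5.89 in vehicle livers. Dosed 5 stood alone at the top, and the other 4 dosed livers lay close together. The vehicle livers spread more widely, from vehicle 3 at the bottom to vehicle 1 at the top. Akr1b8 rose by 1.98 ± 0.27 (SE, n = 5 per group, limma adjusted p = 0.00117), or 3.94-fold.

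Akr7a3, the aflatoxin aldehyde reductase that converts the dialdehyde of aflatoxin B1 to an alcohol, read 11.30, 10.83, 10.31, 10.37 and 11.03 in dosed livers 1 to 5, against 9.27, 9.53, 9.01, 9.38 and 9.17 in vehicle livers. Here dosed 1 was the highest and dosed 5 the second, and the groups did not overlap. Akr7a3 rose by 1.49 ± 0.17 (SE, n = 5 per group, limma adjusted p = 0.000351), or 2.82-fold, from a vehicle level already 88.5% of the way up that ranking.

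Gstp1, the most widely used single marker of rat foci, read 10.21, 10.48, 10.16, 10.29 and 11.75 in dosed livers 1 to 5, against 9.94, 9.94, 9.68, 9.88 and 9.49 in vehicle livers. All 5 dosed livers were above all 5 vehicle livers, 4 of them by a narrow margin and dosed 5 by a wide one. In vehicle livers Gstp1 was already 91.9% of the way up the ranking of probe sets, a bright signal for a gene described as scarce in normal hepatocytes, and which liver cells gave it was not tested. Over the vehicle mean, dosed 5 was 3.90-fold higher, while the other 4 dosed livers were 1.29-fold to 1.62-fold higher. Gstp1 averaged 10.58 ± 0.67 in dosed and 9.78 ± 0.20 in vehicle livers (SD, n = 5 each), a difference of 0.79 ± 0.25 (SE, 95% interval 0.24 to 1.34) that did not pass (limma adjusted p = 0.109). Without dosed 5 the difference was smaller but passed, at 0.50 ± 0.11 (SE, limma adjusted p = 0.026).

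**Figure D1:**
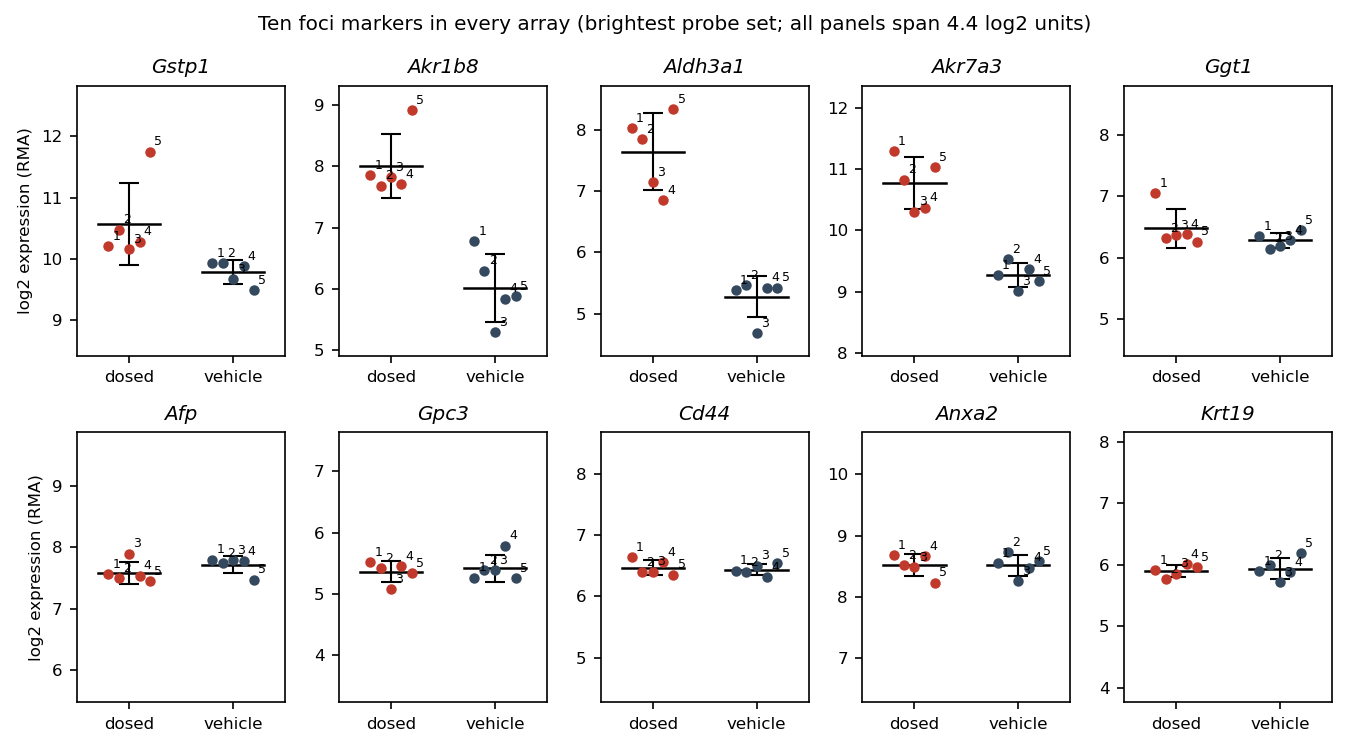
Log2 expression of the 10 marker genes (vertical axes, RMA values, brightest probe set) in dosed livers, left, and vehicle livers, right, with each point numbered by its replicate, the horizontal bar at the mean and the whiskers at 1 SD (n = 5 each). Gstp1, Akr1b8, Aldh3a1 and Akr7a3 separate the groups with no overlap, with dosed 5 at 11.75 for Gstp1 and 8.92 for Akr1b8, and the other 6 genes overlap.

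The remaining enzyme, Ggt1, which splits glutathione outside the cell, did not pass the test. It read 7.05, 6.32, 6.36, 6.39 and 6.26 in dosed livers 1 to 5, against 6.35, 6.14, 6.18, 6.28 and 6.44 in vehicle livers. Only dosed 1 stood above the vehicle range, at 1.70-fold the vehicle mean, and dosed 5, the top liver for Gstp1, was the lowest dosed liver for Ggt1. The difference was 0.19 ± 0.13 (SE, 95% interval -0.09 to 0.48, limma adjusted p = 0.563), and 0.05 ± 0.08 without dosed 1 (limma adjusted p = 0.86).

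None of the fetal, ductal and migration markers passed the test, with groups that overlapped in each. Afp, the fetal serum protein that returns in many liver tumours, read 7.56, 7.49, 7.90, 7.54 and 7.45 in dosed livers 1 to 5, against 7.80, 7.74, 7.79, 7.77 and 7.47 in vehicle livers. Its difference was -0.13 ± 0.09 (SE, 95% interval -0.33 to 0.08, limma adjusted p = 0.607). All dosed livers except dosed 3 lay below all vehicle livers except vehicle 5.

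Gpc3, glypican-3, a cell-surface heparan sulfate proteoglycan made by fetal liver and liver cancer, ranged from 5.08 to 5.52 in dosed and from 5.26 to 5.79 in vehicle livers. Its difference was -0.05 ± 0.11 (SE, 95% interval -0.29 to 0.19). Its second probe set was among the dimmest 6.02% of the array and differed by 0.03 ± 0.07. Krt19, the keratin of bile duct and hepatic progenitor cells, ranged from 5.76 to 6.01 in dosed and from 5.72 to 6.19 in vehicle livers, with a difference of -0.04 ± 0.09 (SE, 95% interval -0.22 to 0.15). Both genes lay below the median of all probe sets.

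Cd44, the hyaluronan receptor found on progenitor cells, leukocytes and tumour cells, ranged from 6.35 to 6.63 in dosed and from 6.31 to 6.54 in vehicle livers on its brighter probe set. The difference was 0.04 ± 0.07 there and 0.16 ± 0.10 on the other (SE, 95% intervals -0.12 to 0.19 and -0.05 to 0.37), with dosed 1 the highest liver on both. Anxa2, annexin A2, a calcium-dependent membrane-binding protein, ranged from 8.24 to 8.69 in dosed and from 8.26 to 8.73 in vehicle livers. Its difference was -0.0014 ± 0.10 (SE, 95% interval -0.22 to 0.22), and 0.0033 ± 0.07 on the dimmer probe set. Of these 5 genes, the interval of each reaches at most 0.37 in the upward direction. The smallest rise among the 3 enzymes that passed, that of Akr7a3, was 1.49 (95% interval 1.12 to 1.87). These intervals bound the array signal, which was dim for Gpc3 and Krt19.

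Counted together, 3 of the 10 markers rose and 0 fell in limma (adjusted p under 0.05, corrected by Benjamini-Hochberg across the array), where 3.32% of the 14217 genes rose and 3.11% fell. At an unadjusted p under 0.05, 4 markers were higher, the fourth being Gstp1, and 0 were lower, against 9.62% higher and 10.2% lower of all genes. In 4 of the 10 markers all dosed arrays lay above all vehicle arrays, against 4.61% of all genes. The median difference of the 10 markers was 0.11, against -0.0039 over all genes. Without dosed 5, 4 of 10 rose against 2.52% of all genes. The markers were chosen with earlier results of these data known, so these shares are a description and not a test of the set.

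A measure of RNA quality moved with the dose. For the GAPDH controls of the array, the 3' probe set exceeded the 5' one by 0.23 ± 0.05 in dosed and 0.45 ± 0.12 in vehicle arrays (SD, n = 5 each, exact permutation p = 0.00794, two-sided, the smallest that 5 against 5 can give, and 0.0159 over both control genes). For beta-actin the excess was 1.40 ± 0.14 in dosed and 1.59 ± 0.12 in vehicle arrays (SD, n = 5 each, exact permutation p = 0.0476, two-sided). With the GAPDH difference in the model, 2 of the 10 markers rose, against 0.802% of all genes. Aldh3a1 was then 2.63 ± 0.43 and Akr7a3 1.43 ± 0.30 higher (limma adjusted p = 0.0143 and 0.0447). Akr1b8 lost its call at 1.77 ± 0.46 (limma adjusted p = 0.107), and Gstp1 lay at 0.60 ± 0.43 (limma adjusted p = 0.534). The GAPDH values of the groups did not overlap, 0.16 to 0.29 in dosed and 0.32 to 0.65 in vehicle arrays, so the part of RNA quality and that of the dose cannot be told apart.

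**Figure D2:**
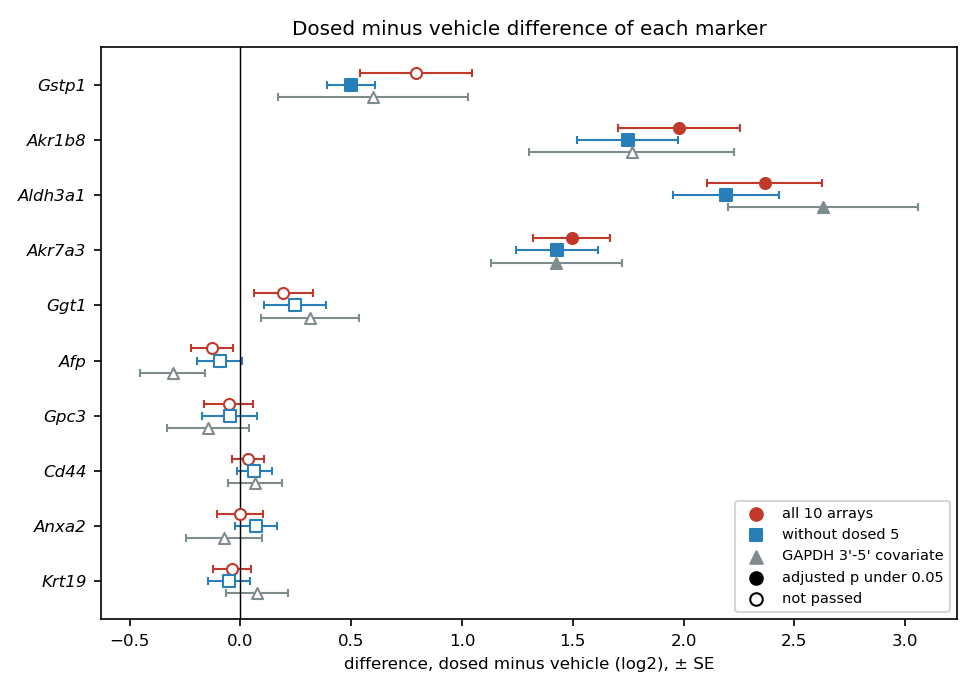
Difference of each marker, dosed minus vehicle on the log2 scale with its SE, over all 10 arrays (circles), without dosed 5 (squares) and with the GAPDH 3' minus 5' difference as a covariate (triangles), where filled symbols passed a limma adjusted p of 0.05. Aldh3a1 and Akr7a3 passed in all 3 fits, Akr1b8 in 2 and Gstp1 only without dosed 5, and the other 6 genes, from -0.31 to 0.31, passed in none.

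The markers were high together in part, and not all in the same liver. Dosed 5 was the highest dosed liver for Gstp1, Akr1b8 and Aldh3a1 and the second for Akr7a3. Above the vehicle mean it stood at 1.97 (Gstp1), 2.90 (Akr1b8), 3.06 (Aldh3a1) and 1.76 (Akr7a3) on the log2 scale. The same liver was the lowest dosed one for Ggt1, Afp, Cd44 and Anxa2. Dosed 1 was instead the highest dosed liver for Akr7a3, Ggt1, Gpc3, Cd44 and Anxa2, and the second for Akr1b8 and Aldh3a1, but only the fourth for Gstp1.

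For Aldh3a1 and Akr7a3, dosed 1, 2 and 5 were the 3 highest dosed livers, and dosed 3 and 4 the 2 lowest. Gstp1 ordered them differently below dosed 5, with dosed 2 second and dosed 3 last. The number of markers above all 5 vehicle arrays was 6, 4, 5, 5 and 4 of 10 in dosed livers 1 to 5, against 20.4%, 18.2%, 15%, 20.3% and 16.7% of all genes. The 4 enzyme genes made up all of that count in dosed 2 and 5, and were joined by Ggt1 and Cd44 in dosed 1, by Afp in dosed 3 and by Cd44 in dosed 4. In the vehicle group, vehicle 3 was the lowest liver for 5 of the 10 markers, Akr1b8, Aldh3a1, Akr7a3, Anxa2 and Krt19. Vehicle 5 was the lowest for Gstp1, Afp and Gpc3. Pearson r of the deviations from the group means is given for the marker pairs as a description over the 10 arrays. Among the 6 pairs of the 4 enzymes r lay between 0.40 (Gstp1 with Akr7a3) and 0.87 (Aldh3a1 with Akr7a3), with 0.75 for Gstp1 with Akr1b8, while the median of all 45 pairs was 0.07. Without dosed 5 the 6 enzyme pairs lay between 0.28 (Gstp1 with Aldh3a1) and 0.88 (Aldh3a1 with Akr7a3), with Gstp1 with Akr1b8 at 0.45. The median of all 45 pairs was then 0.20, and the highest r outside the enzyme pairs was 0.71 (Anxa2 with Krt19). The contrast between the enzyme pairs and the other pairs was thus smaller without dosed 5. Gstp1 ran against Cd44 with dosed 5 (r = -0.58) and without it (r = -0.60), and against Anxa2 only with it (r = -0.55, and 0.20 without).

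**Figure D3:**
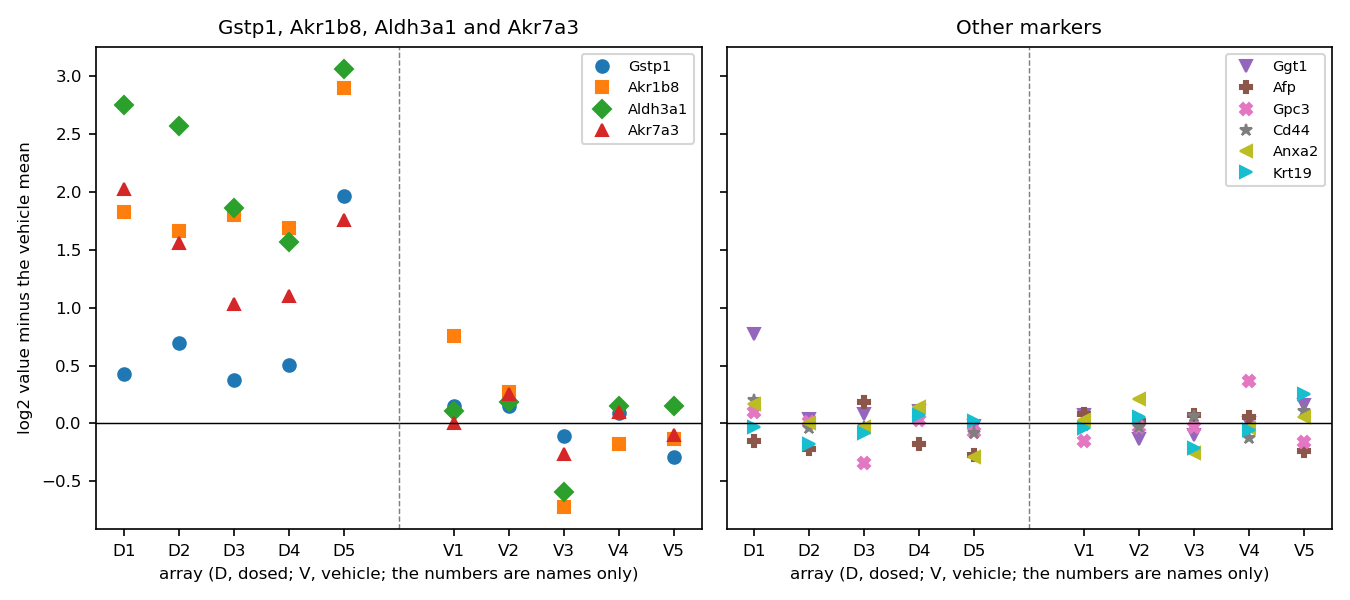
Log2 value minus the vehicle mean of the gene (vertical axis) in each dosed (D) and vehicle (V) array (horizontal axis), for Gstp1, Akr1b8, Aldh3a1 and Akr7a3 at left and the other 6 markers at right. The 4 enzymes are above 0 in every dosed array and furthest in D5, except Akr7a3, which is highest in D1, where Ggt1 also stands at 0.77.

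Dosed 5 was not the array with the highest levels of other detoxication genes. Among 27 measured genes of a detoxication list without the markers, it was the highest dosed array for 4, or 14.8%, against 16.9% of all genes, while dosed 1 was the highest for 10, or 37.0%, against 24.8% of all genes. Its GAPDH difference of 0.24 and its array median of 6.22 lay within the range of the other dosed arrays. Its 12 macrophage markers did stand low: dosed 5 was the lowest dosed array for 10 of them, against 2586 of all 14217 genes. Their mean log2 level was 9.14 there, 9.41 to 9.53 in the other dosed arrays and 9.52 to 9.86 in vehicle arrays. The mean levels of lymphocyte genes (5.74) and of stellate cell and fibroblast genes (7.23) were also lowest among dosed arrays in dosed 5. Those of endothelial (8.99), hepatocyte (14.09) and bile duct genes (5.69) were not. The part of detoxication gene levels, RNA quality, array scale, macrophage markers or other cell type markers in the Gstp1 level of dosed 5 was not tested.

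By the likeness of their deviations from the group means over the 10 arrays, Pdia5, Zbtb18 and Cyp3a9 came closest to Gstp1 among 9481 genes above the median level (Pearson r = 0.93, 0.92 and 0.88, given as a description). Pdia5, a protein disulfide isomerase of the endoplasmic reticulum, read 7.91, 8.20, 8.23, 8.06 and 10.56 in dosed livers 1 to 5, against 8.38, 8.47, 8.57, 8.82 and 8.56 in vehicle livers. Dosed 5 alone stood above the vehicle range, and the other 4 dosed livers lay below it. Zbtb18, a zinc finger repressor, was also highest in dosed 5, at 9.80, with 9.13 to 9.34 in the other dosed livers and 9.09 to 9.44 in vehicle livers. Cyp3a9, a cytochrome P450, fell (-2.12 ± 0.28, SE, limma adjusted p = 0.000823), yet within the dosed group it was again highest in dosed 5, at 10.65. Without dosed 5, Pdia5 was lower in dosed livers (-0.46 ± 0.10, SE, limma adjusted p = 0.0289), against 0.03 ± 0.40 over all arrays.

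The 3 risen enzymes stood among a wide rise of detoxication genes. In the list of 27 measured genes of drug metabolism, glutathione and NADPH supply, 21 rose and 0 fell in limma, with a median difference of 0.89 (before adjustment, at p under 0.05, 23 were higher and 0 lower). Cyp1a1, the main enzyme induced through the aryl hydrocarbon receptor, rose by 8.38 ± 0.15, and Cyp1b1 by 6.23 ± 0.17. Nqo1, a quinone reductase of both pathways, read between 12.19 and 12.60 in dosed and between 9.31 and 9.71 in vehicle livers and rose by 2.85 ± 0.09. Abcc3, an exporter of conjugates, rose by 1.93 ± 0.17 (all SE, n = 5 per group, limma adjusted p at most 4.3e-05). With the GAPDH difference in the model 13 of these genes rose and 0 fell, where 0.802% of all genes rose. Without that covariate 3.32% of all genes rose and 3.11% fell, and before adjustment 9.62% were higher and 10.2% lower. The list was chosen with earlier results of these data known, so its counts are a description. A link between them and the rise of the 3 enzymes was not tested.

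Of the 6 measured relatives of the risen Akr1b8, Akr7a3 and Aldh3a1, 0 passed limma (before adjustment, at p under 0.05, 1 was higher and 0 were lower). The aldo-keto reductases Akr1b1 (-0.13 ± 0.06), Akr1b7 (0.04 ± 0.09), Akr1b10 (0.09 ± 0.11) and Akr7a2 (0.16 ± 0.07) and the aldehyde dehydrogenases Aldh3a2 (-0.10 ± 0.08) and Aldh3b1 (-0.07 ± 0.10) are these 6. In the whole list of 28 measured relatives and partners of all 10 markers 2 rose and 1 fell, with a median difference of 0.03. These 3 are relatives of Gstp1 and Anxa2. Over all genes 3.32% rose and 3.11% fell, and before adjustment 9.62% were higher and 10.2% lower. Gstp3, the other pi-class transferase in the annotation, fell by 0.87 ± 0.12 (SE, limma adjusted p = 0.00128). It read 11.56, 12.13, 11.81, 11.49 and 11.55 in dosed livers 1 to 5, against 12.68, 12.65, 12.61, 12.66 and 12.28 in vehicle livers, with no overlap, which is opposite in sign to the difference of Gstp1. That this probe set measures Gstp3 rests on the platform annotation alone, and cross-hybridisation between related transferases was not tested. Anxa7, an annexin, rose by 1.14 ± 0.12 on its brighter probe set and differed by 0.15 ± 0.09, without passing, on the other. Gstt1, a theta-class transferase, rose by 0.34 ± 0.08, a call that ended without dosed 2, 3 or 5 or vehicle 1 or 3 (0.32 ± 0.08 without dosed 5, limma adjusted p = 0.0661) and at 0.20 ± 0.12 with the GAPDH difference (limma adjusted p = 0.446).

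Most other genes tied to foci and liver tumours did not pass. Of 29 measured genes in that list, which holds no marker described above, 1 rose and 5 fell, against 3.32% and 3.11% of all genes. Their median difference was -0.05, and the numbers without dosed 5 were 0 and 3. Ccnd1, cyclin D1, which drives entry into the cell cycle, read between 7.90 and 9.38 in dosed and between 9.75 and 10.52 in vehicle livers and fell (2.84-fold lower, limma adjusted p = 0.00376). All 3 of its probe sets fell. Igf2bp3, an oncofetal RNA-binding protein, fell by 1.36 ± 0.18 (SE, limma adjusted p = 0.000932). Glul, glutamine synthetase, which marks hepatocytes around the central vein and some tumours with active beta-catenin, fell by 0.98 ± 0.13 (SE, limma adjusted p = 0.000634). Each of the 2 also had 1 of 3 probe sets that was lower without passing, and so did the second probe set of Cdkn1a (-0.21 ± 0.13).

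Cdkn1a, the cell cycle inhibitor p21, fell by 0.80 ± 0.20 (SE, limma adjusted p = 0.0364), a call that ended without dosed 1, 2, 3 or 5 or vehicle 1, 2, 3 or 5. With the GAPDH difference in the model the calls of Ccnd1 (-1.41 ± 0.43), Glul (-0.85 ± 0.21) and Cdkn1a (-0.77 ± 0.34) ended and that of Igf2bp3 did not, which left 1 fallen gene in the list. Golm1, a Golgi protein raised in diseased liver, was the fifth to fall (-0.35 ± 0.09, SE, limma adjusted p = 0.0419). The gene that rose was Gpx2, a glutathione peroxidase and NRF2 target, at 0.60 ± 0.13 (SE, limma adjusted p = 0.021). Gpx2 was dim, with a mean over all arrays 35.3% of the way up the ranking of probe sets. Without dosed 5, and also with the GAPDH difference in the model, 0 genes of this list rose. Of 23 proliferation genes 0 passed limma. Before adjustment, at p under 0.05, 0 were higher and 3 lower, against 9.62% and 10.2% of all genes. Pcna, the replication clamp, was at 0.15 ± 0.09 and Plk1, a mitotic kinase, at -0.07 ± 0.09. The median difference of the 23 genes was -0.05, and 18 of them were below the median level of the array.

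**Figure D4:**
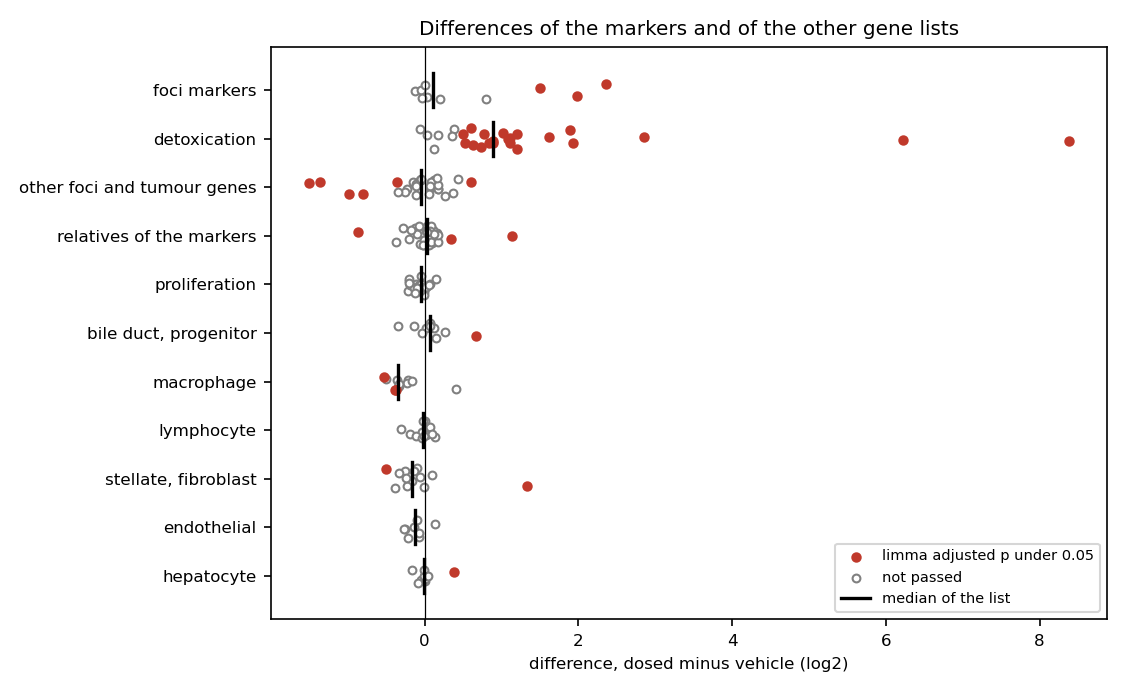
Difference of each gene, dosed minus vehicle on the log2 scale (horizontal axis), for the 10 markers and 10 other gene lists, with filled points past a limma adjusted p of 0.05 and a bar at each list's median. The detoxication list has its median at 0.89, and the medians of the other foci and tumour genes (-0.05), the proliferation genes (-0.05) and the bile duct list (0.07) lie near 0.

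Markers of liver cell types were compared because Cd44, Anxa2 and Krt19 are made mainly outside hepatocytes. The hepatocyte genes stood at the top of the array in every sample, with a mean log2 level of 14.05 to 14.15 in dosed and 14.06 to 14.10 in vehicle livers. Alb, albumin, read 15.11 ± 0.01 in both groups (SD, n = 5 each), and Ttr, transthyretin, differed by -0.04 ± 0.05. The Alb readings lay at the top of the scale, where the highest value of any array was 15.12. Whether a change in Alb was hidden there was not tested. Of 9 hepatocyte genes 1 rose, Apoa1 of high-density lipoprotein (0.38 ± 0.07), where 3.32% of all genes rose and 3.11% fell. Of 11 bile duct and progenitor genes 1 rose, the tetraspanin Tspan8 (0.66 ± 0.08), and 0 fell in limma, also at an unadjusted p under 0.05, and 8 of the 11 were below the median level of the array. Their mean level was 5.64 to 5.69 in dosed and 5.52 to 5.71 in vehicle livers. The brightest, Epcam (0.26 ± 0.16), an epithelial adhesion protein, and Prom1 (-0.35 ± 0.30), a progenitor surface protein, did not pass.

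Of 12 macrophage genes 0 rose and 3 fell in limma, with a median difference of -0.34. Before adjustment, at p under 0.05, 1 was higher and 9 were lower. Over all genes 3.32% rose and 3.11% fell, and before adjustment 9.62% were higher and 10.2% lower. Without dosed 5 the number of macrophage genes that fell was 0. Their mean log2 level was 9.14 to 9.53 in dosed and 9.52 to 9.86 in vehicle livers. Cd5l (-0.52 ± 0.12), Aif1 (-0.38 ± 0.09) and C1qa (-0.37 ± 0.08) were the 3, and the second probe set of Aif1 differed by 0.10 ± 0.09. The calls of Cd5l and Aif1 also ended without dosed 1 or 4 or vehicle 1, 2 or 4, and that of C1qa without vehicle 1. Of 12 lymphocyte genes and 8 endothelial genes 0 passed limma (before adjustment, at p under 0.05, 2 of each list were lower and 0 higher), and of 13 stellate cell and fibroblast genes 1 rose, Rgs5 of pericytes (1.33 ± 0.18), and 1 fell, the retinol-esterifying Lrat (-0.51 ± 0.10). The brightest genes, Lck (-0.04 ± 0.07) and Cd4 (-0.11 ± 0.10) of T cells and Kdr (-0.11 ± 0.07) and Fcgr2b (-0.27 ± 0.08) of sinusoidal endothelium, did not pass. Without vehicle 5, Fcgr2b fell (-0.33 ± 0.07, limma adjusted p = 0.0156), and in all 3 stellate cell genes and 1 endothelial gene did. With the GAPDH difference in the model 0 genes of these cell type lists passed. The part of cell composition in the levels of Cd44, Anxa2 and Krt19 was not tested.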

How the data were processed

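RNA from 10 liver samples was measured on 1-colour rat expression arrays, 1 array a sample. The deposited table holds log2 expression values that the authors made with RMA, per the submitters' processing notes. RMA aligns the distributions of the arrays, and array medians lay between 6.21 and 6.29. Of 31099 rows, 57 are array controls and were kept out of the tests.

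Gene names come from the platform's 2016 annotation, updated by Entrez ID through RefSeq (GRCr8, names and promoter windows only). A single gene is given for 20826 of the 31042 probe sets, several for 436, which were not used, and none here for 9780. Each gene was followed through its brightest probe set, with no filter on low values.

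Both groups were fitted with limma 3.58.1 (lmFit and eBayes, R 4.3.3), two-sided, and p-values were corrected by Benjamini-Hochberg across the 31042 probe sets. A gene "rose" or "fell" where the adjusted p was under 0.05. The sign ± after a difference gives its SE. As no label identifies the animals, p-values reflect the spread of these samples, which may be technical. The number of arrays limits the precision.

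Named besides the 10 markers were up to 4 called genes of largest difference in each of 10 other lists (the 2 brightest where fewer than 2 passed) and the 3 genes most like Gstp1. Akr1b1, Akr1b7, Akr1b10, Akr7a2, Aldh3a2, Aldh3b1, Gpx2, Golm1, Tspan8 and Apoa1 were chosen after their values were seen. The markers and lists were chosen with earlier results of these data known. The fit was tested on simulated arrays. Deviations of same-numbered arrays correlated at -0.28 to 0.22, with 1 pair over 0.1. The main fit did not take the numbers as pairs, and these correlations cannot exclude a pairing.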

Additional observations from a re-analysis of the deposited data

Results flagged for a closer look

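In 7 of 26 groups of 5 arrays, over 13 probe sets, 1 array stood far from the other 4. A rate of about 1 in 20 would apply to independent groups of normally distributed values. These groups come from the same arrays, and some genes vary together, such as Gstp1 with Akr1b8 (r = 0.75). No share over all probe sets is given here, so the count is a description and not a test against chance. Dosed 5 was far above the other dosed arrays for Gstp1 (11.75) and Akr1b8 (8.92), and dosed 1 for Ggt1 (7.05). Vehicle 3 was far below the other vehicle arrays for Aldh3a1 (4.68). For Afp, dosed 3 lay above the other dosed arrays (7.90) and vehicle 5 below the other vehicle arrays (7.47), and for Gpc3 vehicle 4 lay above the other vehicle arrays (5.79).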

How the results depend on the processing

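Of the 10 markers, 8 kept their side of the threshold under every alternative run. Akr1b8 lost its call with the GAPDH difference as a covariate, and Gstp1 gained one without dosed 5. Across the alternatives Gstp1 ran from 0.50 to 0.90, Akr1b8 from 1.75 to 2.17, Aldh3a1 from 2.19 to 2.63, Akr7a3 from 1.36 to 1.61, Ggt1 from 0.05 (without dosed 1) to 0.31 and Afp from -0.31 to -0.04. The sign of the small differences of Gpc3, Cd44, Anxa2 and Krt19, none of which passed, turned under 3, 2, 8 and 3 alternatives. Gpc3 and Krt19 had no value with dim probe sets left out. The count of risen markers was 2 with the GAPDH covariate, 4 without dosed 5 and 3 otherwise.

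Over all genes, 472 rose and 442 fell. Array weights gave 676 fallen, no moderation of the variance 252 fallen, the GAPDH covariate 114 and 114, the beta-actin covariate 282 and 216, and the threshold of 0.01 253 and 184. With 1 array left out, 305 to 699 fell, the highest without vehicle 5. With the replicate block 345 rose and 302 fell and the 3 marker calls were kept. The cause was not tested.

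Pdia5, one of the genes most like Gstp1, ran from -0.46 without dosed 5 to 0.21 without dosed 1. The 95% intervals in the report bound the differences of the markers that did not pass. The runs for the other lists and their named genes, and the marker correlations without dosed 5, were added after seeing the data.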
